A study of Mus musculus with 12 samples.

Results

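The genes described here are the histone genes of the nuclear RNA count table: the rows whose symbol belongs to the mouse clusters Hist1 to Hist4, and 10 named genes for histone variants (H2afx, H2afy, H2afy2, H2afz, H2afv, H2afj, H3f3a, H3f3b, H1f0 and H1fx). They were taken by symbol and number 81 of 46983 genes in the table, 71 of them in the clusters. RNA from cardiomyocyte nuclei of adult mice was sequenced in 2 groups of 2 libraries each, with and without YAP5SA, a YAP protein that can no longer be held inactive by phosphorylation because its regulatory serines were changed to alanine. YAP itself is a co-activator of transcription. The control group came from adult Myh6-MCM mice given tamoxifen. The YAP5SA group came from adult mice of genotype Yap5SA+/tg; Myh6-MCM, also given tamoxifen, so that the MCM allele and the drug were common to both groups. MCM is a Cre recombinase that tamoxifen activates, here driven by the Myh6 promoter in heart muscle cells. Nuclei were captured on beads by PCM1, a protein of the cardiomyocyte nuclear surface. Ribosomal RNA was removed from the libraries and no selection for poly(A) tails is named in the protocol, so that histone RNA without a tail can be counted.

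Library totals ran from 7850661 to 15012122 counts. The control libraries stood further apart than the YAP5SA libraries, with a biological coefficient of variation of 34.3% against 8.44%. Yap1 itself had 1528 and 1258 counts in control and 2486 and 2120 in YAP5SA (log2 fold change 0.11, SE 0.18, edgeR adjusted p = 0.750), and the sources used here do not say if transgene reads were counted with it. The 9 cardiomyocyte markers were counted in every library, with a summed level of 32812 and 67012 CPM (depth-corrected counts, with the same total for each library) in control and 23438 and 24964 CPM in YAP5SA, of which Ttn made up 19901 and 48149 against 15501 and 16678. In edgeR none of the 9 was called and 4 were lower at an unadjusted p below 0.05. DESeq2 called 4 lower and limma-voom none. Pcm1, for the protein used in the capture, had 184 and 240 CPM in control and 250 and 282 CPM in YAP5SA (edgeR adjusted p = 0.396). The 13 macrophage and monocyte markers summed to 934 and 628 CPM in control and to 1525 and 1832 CPM in YAP5SA, and 6 rose. The 8 markers of proliferating cells summed to 180 and 243 CPM in control and to 452 and 589 CPM in YAP5SA, and Plk1 and Bub1 among them rose. The 8 endothelial markers summed to 1422 and 1025 CPM in control and to 746 and 708 CPM in YAP5SA, none had a positive fold change, and Vwf and Robo4 fell. No marker of these 4 lists was at 0 in all libraries. The 4 sums did not overlap between the groups. Among the other cell type lists, fibroblast sums were 5580 and 4177 CPM in control and 3608 and 4438 CPM in YAP5SA. Erythroid sums were 110 and 193 CPM against 112 and 155 CPM, and both lists overlapped. Smooth muscle and pericyte sums did not (1394 and 1229 against 1419 and 1587 CPM). Nor did lymphocyte sums (8.78 and 2.51 against 1.48 and 1.44 CPM). Over all tested genes, edgeR called 3.12% higher and 0.999% lower. The part of any list in the histone results was not tested. In bulk RNA, fewer cells of a type and less RNA per cell cannot be told apart.

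Histones are the proteins around which DNA is wrapped: H2A, H2B, H3 and H4 form the core of the nucleosome, and H1 binds the linker DNA. Most histone protein for newly copied DNA comes from the replication-dependent genes of the Hist clusters, which are transcribed mainly in S phase and whose mRNA ends in a stem-loop, bound by the protein Slbp, in place of a poly(A) tail. The variant or replacement genes include H3f3a and H3f3b for the replacement H3 and H2afz for H2A.Z. Most lie outside these clusters, while H2afj lies close to Hist4h4 on chromosome 6. Variant genes carry poly(A) tails as a rule and are used throughout the cell cycle, also in cells that no longer divide. Most cardiomyocytes of the adult heart have left the cell cycle.

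The stem-loop was searched as a stem of 6 base pairs starting with GG, a loop of 4 bases starting with TT, and the matching stem. It had to take 16 bases in all and lie within 120 bases after the stop codon (GRCm38, GENCODE M21 stop codons). It was found in 60 of the 67 cluster genes with such a window, in 1 of 10 variant genes (H2afx), and in 69 of 21752 protein-coding genes of the annotation (0.317%), of which 8 are outside the histone genes described here. One form, with the stem GGCTCT and the loop TTTC, was carried by 38 genes of all classes but H4. The stem GGCCCT with the same loop was carried by 8 genes, each of class H4. The sequences below show the main forms, with 5 bases on either side. Capitals mark the paired stem, and coordinates are those of the 16 bases in GRCm38.
Hist1h1b, for a linker histone, chr13:21779837-21779852, minus strand: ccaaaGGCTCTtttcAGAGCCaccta
Hist1h1c, for a linker histone, chr13:23739512-23739527, plus strand: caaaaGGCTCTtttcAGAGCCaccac
Hist1h2bb, for H2B, chr13:23747203-23747218, plus strand: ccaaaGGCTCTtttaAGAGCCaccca
Hist1h3c, for H3, chr13:23745047-23745062, minus strand: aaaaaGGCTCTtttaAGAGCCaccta
Hist1h4f, for H4, chr13:23551291-23551306, minus strand: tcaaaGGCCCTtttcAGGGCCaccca
Hist1h4j, for H4, chr13:21735437-21735452, plus strand: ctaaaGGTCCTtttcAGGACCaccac
Hist2h4, for H4, chr3:96262939-96262954, minus strand: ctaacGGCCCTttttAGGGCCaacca
H2afx, for the variant H2A.X, chr9:44335240-44335255, plus strand: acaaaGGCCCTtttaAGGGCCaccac
Hist1h1b and Hist1h1c carry the same 16 bases and did not have the same fold change, as given below.

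Promoters of 300 bases (250 before to 50 after the start, RefSeq, GRCm38.p6) were at hand for 70 of the 81 genes, 61 of them cluster genes. Motifs were searched on both strands. A TATA box (TATAAA) was found in 35 of 61 cluster promoters (57.4%) and in 13.6% of the 32851 promoters in the table. A CCAAT box (CCAAT) was found in 52 of 61 (85.2%), against 37.4% of all promoters. The latter divided the classes: it was in each of the 6 H1, 17 H2A, 16 H2B and 10 H3 promoters, and in 3 of 12 H4 promoters. The octamer (ATTTGCAT), known from H2B promoters, was found in 6 of 16 H2B and 7 of 17 H2A promoters, in none of the H1, H3 and H4 promoters, and in 1.74% of all. The H1 box (AAACACA) was found in 5 of 6 H1 promoters and in 7.18% of all. None of these 4 motifs overlaps another by its letters in the stretches below. These show the 180 bases before the start of an H1 gene and of an H2B gene that rose, with the 4 motifs in capitals on either strand (ATTGG is CCAAT read on the other strand). A match describes the letters only.
Hist1h1b, chr13:21780626-21780805, minus strand: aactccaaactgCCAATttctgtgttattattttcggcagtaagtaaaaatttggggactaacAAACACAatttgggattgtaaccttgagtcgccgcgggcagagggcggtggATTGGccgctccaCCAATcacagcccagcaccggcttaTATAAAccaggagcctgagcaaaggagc
Hist1h2bm, chr13:21721864-21722043, plus strand: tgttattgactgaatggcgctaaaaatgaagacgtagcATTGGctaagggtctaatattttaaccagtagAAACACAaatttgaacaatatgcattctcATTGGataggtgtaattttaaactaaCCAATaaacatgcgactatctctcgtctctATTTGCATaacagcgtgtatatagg
Hist1h1b has a TATA box 28 bases before the start and an H1 box 117 bases before it. Hist1h2bm has an octamer 25 bases before the start and no TATA box by these letters.

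Cluster histone RNA was higher in both YAP5SA libraries than in either control library, while the groups overlapped for variant histone RNA. The summed level of the cluster genes was 629 and 576 CPM in control and 1075 and 1187 CPM in YAP5SA (603 ± 37.8 and 1131 ± 78.9, SD, n = 2), a ratio of 1.88. The 10 variant genes summed to 543 and 375 CPM in control and to 423 and 463 CPM in YAP5SA (459 ± 119 and 443 ± 27.9, SD, n = 2), a ratio of 0.965. Of the 81 genes, 73 had a count and 61 passed the filter on low counts, 51 of the clusters and the 10 variants. In edgeR's quasi-likelihood test, adjusted by Benjamini-Hochberg over all 17715 genes tested at a threshold of 0.05, 17 of the 61 rose and none fell. Over all tested genes, 3.12% rose and 0.999% fell. The 17 lie in Hist1, and none of the variants was called. At an unadjusted p below 0.05, 39 cluster genes and 1 variant (H2afz) were higher and 1 cluster gene (Hist2h2be) was lower. The share of all tested genes at this unadjusted threshold is not given here, so such counts, also those below, are descriptions only. DESeq2 called 29 of the 63 cluster genes it fitted higher, no variant, and none lower. Over all 30546 genes it fitted, 3.47% were higher and 1.73% lower.

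Of the 51 cluster genes tested, 48 had a positive log2 fold change (YAP5SA minus control), with a median of 1.19 and a range from -1.49 to 2.09. Over all tested genes the median was -0.06 and 45.8% were positive. Both YAP5SA libraries lay above both control libraries for 47 of the 51, which 28.1% of all tested genes did. For 1 of them, Hist2h2be, both lay below, which 28.3% of all tested genes did. The calls need both YAP5SA libraries: without either of them edgeR called no histone gene, and 0.362% (without replicate 1) and 0.143% (without replicate 2) of all tested genes higher. At an unadjusted p below 0.05, 29 and 27 cluster genes were then higher, each of them among the 39. Without control replicate 1 or 2 it called 44 and 40 histone genes higher, beside 18.8% and 19.7% of all tested genes.

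**Figure D1:**
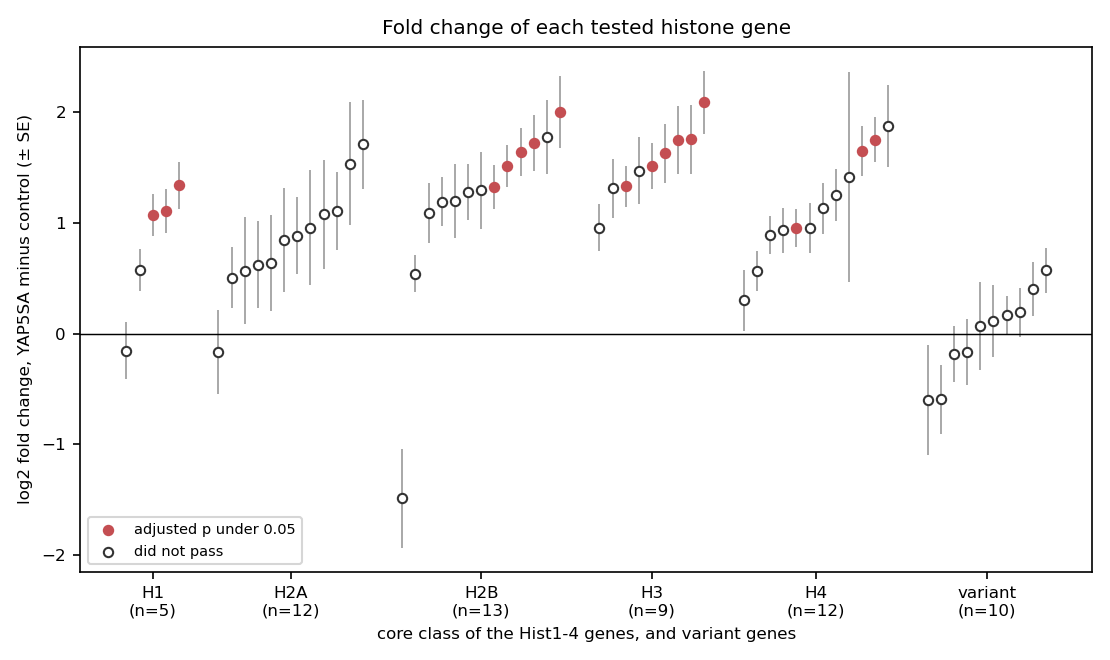
Log2 fold change (YAP5SA minus control, with its SE) of each of the 61 tested histone genes, grouped by core class for the cluster genes and shown apart for the variants. The genes of H3 and H4 all lie above 0, those of H2A, H2B and H1 do so with 1 exception each, and the variants lie on both sides of 0.

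**Figure D2:**
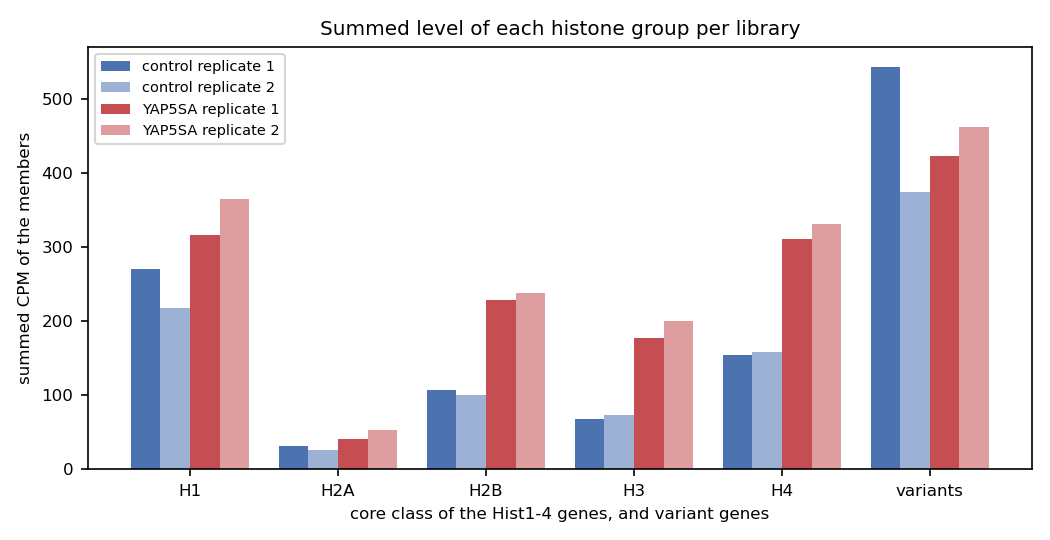
Summed CPM of the genes of each core class and of the variants in each of the 4 libraries (bars, from 0). For H2B, H3 and H4 both YAP5SA libraries stand more than 1.5 times as high as either control library, and for the variants the groups overlap.

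The H3 genes of the clusters, which encode the H3 proteins laid down behind the replication fork, had the largest ratio of the 5 classes. Their summed level was 67.1 and 73.6 CPM in control and 177 and 201 CPM in YAP5SA, a ratio of 2.68. Each of the 9 tested had a positive fold change (median 1.52), each had both YAP5SA libraries above both controls, and 6 rose. Hist1h3c, the H3 gene with the highest mean level per kilobase of exon, had 12.4 and 15.9 CPM in control and 37.5 and 43.1 CPM in YAP5SA (log2 fold change 1.52, SE 0.21, edgeR adjusted p = 0.0321). Hist1h3f had 12.4 and 12.8 CPM in control and 29.9 and 33.6 CPM in YAP5SA (1.33, SE 0.18, adjusted p = 0.0321). Hist1h3g had 28 and 17 counts in control and 148 and 139 in YAP5SA, the largest fold change of the tested histone genes (2.09, SE 0.28, adjusted p = 0.0321). In these 3 genes the lowest YAP5SA library was more than 2 times the highest control library. Hist1h3b, Hist1h3h and Hist1h3i also rose, with log2 fold changes of 1.76, 1.75 and 1.63. Hist1h3e, with 16.8 and 12.8 CPM in control and 27.6 and 30.1 CPM in YAP5SA, had 0.96 and did not pass the test (adjusted p = 0.0721).

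The H4 genes encode 1 protein from many copies. Their summed level was 154 and 158 CPM in control and 311 and 332 CPM in YAP5SA, a ratio of 2.06. The 12 tested had positive fold changes (median 1.04), from 0.30 for Hist1h4i to 1.88 for Hist1h4j, and 3 rose. Hist1h4f had 106 and 92 counts in control and 552 and 473 in YAP5SA, which is 9.60 and 12.2 CPM against 37.2 and 35.9 CPM (log2 fold change 1.75, SE 0.20, edgeR adjusted p = 0.0278). It had the smallest adjusted p among the histone genes. Hist1h4k had 7.43 and 9.38 CPM in control and 24.3 and 28.5 CPM in YAP5SA (1.65, SE 0.23, adjusted p = 0.0321). Hist1h4c had 19.7 and 18.4 CPM in control and 35.1 and 38.7 CPM in YAP5SA (0.95, SE 0.17, adjusted p = 0.0494). Hist1h4d and Hist1h4h had 0.89 and 0.95 and missed the threshold (adjusted p = 0.0560 and 0.0797). Hist1h4j had 3.44 and 1.85 CPM in control and 9.91 and 9.95 CPM in YAP5SA, with an adjusted p of 0.0562. Outside Hist1, Hist2h4 had 0.93 (adjusted p = 0.0683) and Hist4h4 0.57 (adjusted p = 0.143), with the YAP5SA libraries above the controls in both.

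The H2B genes had a summed level of 106 and 99.8 CPM in control and 229 and 238 CPM in YAP5SA, a ratio of 2.26, and 5 of the 13 tested rose. Hist1h2bg had 11.4 and 10.2 CPM in control and 29.2 and 32.7 CPM in YAP5SA (log2 fold change 1.52, SE 0.19, edgeR adjusted p = 0.0301). Hist1h2bb had 8.60 and 11.1 CPM in control and 29.2 and 31.9 CPM in YAP5SA (1.64, SE 0.21, adjusted p = 0.0314). Hist1h2bk had 31 and 34 counts in control and 193 and 209 in YAP5SA (2.00, SE 0.32, adjusted p = 0.0418). The groups of these 3 genes were apart by more than the spread within either group. Hist1h2bm and Hist1h2bh rose with 1.72 and 1.33. Hist1h2be had 1.19 (adjusted p = 0.0521), and its annotated exons overlap those of the H1 gene Hist1h1e on the same strand. Hist1h2bc had 26.3 and 24.2 CPM in control and 34.8 and 38.7 CPM in YAP5SA (0.54, adjusted p = 0.141). Hist2h2be was the exception, with 92 and 30 counts in control and 34 and 28 in YAP5SA, or 8.33 and 3.97 CPM against 2.29 and 2.13 CPM. Its log2 fold change was -1.49 (SE 0.45, adjusted p = 0.131). Control replicate 1 was high, and control replicate 2 still stood above both YAP5SA libraries. No stem-loop was found after its stop codon by the search used here, and its annotated exons run for 2620 bases.

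The H2A genes were the least counted class of the clusters. Their summed level was 31.2 and 25.9 CPM in control and 41.0 and 52.4 CPM in YAP5SA, a ratio of 1.64. Of 20 genes 12 were tested, 11 had a positive fold change (median 0.87), 10 had both YAP5SA libraries above both controls, and edgeR called none, with 4 higher at an unadjusted p below 0.05. DESeq2 called 1 higher, edgeR without the filter on low counts 1, and limma-voom none. Hist2h2ac had 5.25 and 4.89 CPM in control and 6.67 and 7.75 CPM in YAP5SA (0.50, adjusted p = 0.326). Hist1h2ab had 3.71 and 4.36 CPM in control and 5.86 and 9.04 CPM in YAP5SA (0.89, adjusted p = 0.203). Hist1h2al, annotated as a pseudogene and lying apart from the rest of Hist1 on chromosome 13, had 5.61 and 2.11 CPM in control and 5.80 and 5.92 CPM in YAP5SA (0.57, adjusted p = 0.516). Each of the 20 H2A genes of the clusters overlaps an annotated gene on the other strand. So do 7 of the 10 variant genes and 1 cluster gene each of H2B, H3 and H4. The libraries are stranded, but the strand setting of the counting was not given in the sources used here. Reads of all these genes and of their partners on the other strand therefore cannot be told apart.

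The linker histone genes did not move as 1 block. Their summed level was 271 and 218 CPM in control and 317 and 364 CPM in YAP5SA, a ratio of 1.39. Of the 5 tested 3 rose. Hist1h1b had 16.1 and 21.8 CPM in control and 45.5 and 50.2 CPM in YAP5SA (log2 fold change 1.34, SE 0.21, edgeR adjusted p = 0.0401). Hist1h1a had 12.9 and 14.7 CPM in control and 27.4 and 31.9 CPM in YAP5SA (1.11, SE 0.20, adjusted p = 0.0477). Hist1h1d had 33.7 and 40.6 CPM in control and 71.2 and 84.4 CPM in YAP5SA (1.07, SE 0.19, adjusted p = 0.0484). These 3 genes rose 2.10-fold to 2.53-fold. Hist1h1e had 52.9 and 42.4 CPM in control and 67.0 and 75.03 CPM in YAP5SA (0.57, adjusted p = 0.150), with the groups apart. Hist1h1c, the histone gene with the highest mean level per kilobase, had 1709 and 741 counts in control and 1563 and 1609 in YAP5SA, or 155 and 97.9 CPM against 105 and 122 CPM (-0.15, SE 0.26, adjusted p = 0.759). Its groups overlapped, and it carries the same stem-loop as Hist1h1b. Hist1h1t, the testis linker histone, was below the filter.

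**Figure D3:**
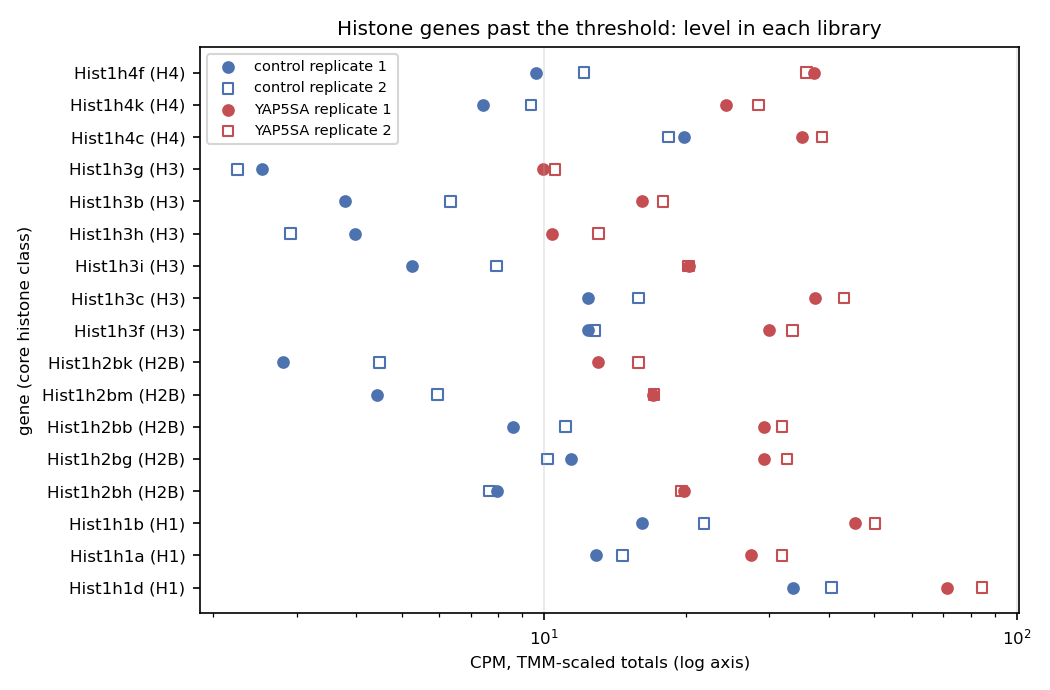
Level of each of the 17 histone genes past the threshold in the 4 libraries (CPM on the scaled totals, log axis), with its core class. In each gene both YAP5SA points lie to the right of both control points.

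Among the variant genes edgeR called none of 10, beside 3.12% of all tested genes called higher, and both YAP5SA libraries lay above both controls for 2 of them, beside 28.1% of all tested genes. Neither count stands apart from these shares. H2afz, for the variant H2A.Z found at promoters, had 30.1 and 24.2 CPM in control and 36.5 and 44.3 CPM in YAP5SA (log2 fold change 0.57, SE 0.20, edgeR adjusted p = 0.174). H2afx, for the variant whose phosphorylation marks DNA breaks and the variant gene with a stem-loop, had 22.6 and 15.5 CPM in control and 23.3 and 27.2 CPM in YAP5SA (0.40, SE 0.25, adjusted p = 0.376). H3f3b, 1 of the 2 genes of the replacement H3, had 238 and 134 CPM in control and 158 and 173 CPM in YAP5SA (-0.17, SE 0.30, adjusted p = 0.771). The other, H3f3a, had 42.4 and 30.004 CPM in control and 39.3 and 43.5 CPM in YAP5SA (0.19, SE 0.22, adjusted p = 0.643). H1f0, the linker histone of resting and differentiated cells, had 1198 and 445 counts in control and 767 and 781 in YAP5SA, or 108 and 58.8 CPM against 51.7 and 59.3 CPM (-0.59, SE 0.31, adjusted p = 0.310). For H3f3b and H1f0 control replicate 1 stood above the other 3 libraries, which lay close together. The macroH2A genes H2afy and H2afy2 had 0.16 and 0.11 (adjusted p = 0.608 and 0.870), H2afv, for a second form of H2A.Z, -0.18 (0.703), H2afj 0.07 (0.935) and H1fx -0.60 (0.507), with overlapping groups in each. The values of the variants moved with the libraries used. Their median log2 fold change was 0.09 with all libraries, 0.24 without control replicate 1 and 0.02 without control replicate 2.

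Ratios of raw counts within a library need no scaling between libraries. Cluster H3 counts were 0.239 and 0.448 of the H3f3a and H3f3b counts in control and 0.895 and 0.925 in YAP5SA. Hist1h1a, Hist1h1b and Hist1h1d, the 3 H1 genes that rose, together were 0.578 and 1.31 times H1f0 in control and 2.79 and 2.81 times in YAP5SA. These 3 genes were called on the same libraries, so this ratio is no separate support. Cluster H2A counts were 0.737 and 0.647 of H2afz and H2afv in control and 0.868 and 0.901 in YAP5SA, the smallest difference of these. Hist1h1c was 1.43 and 1.67 times H1f0 in control and 2.04 and 2.06 times in YAP5SA. In each ratio both YAP5SA libraries lay above both controls. The control libraries lay further apart than the YAP5SA libraries in each.

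**Figure D4:**
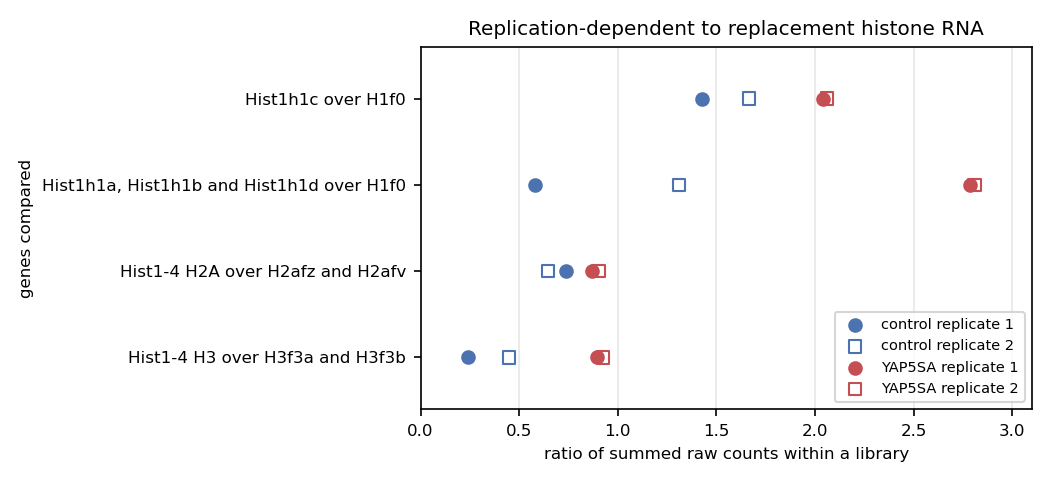
Ratio of summed raw counts of cluster histone genes to variant genes within each library. The ratio of Hist1h1a, Hist1h1b and Hist1h1d to H1f0 uses the H1 genes that rose in these libraries. The control points of H3 lie at 0.239 and 0.448 and the YAP5SA points at 0.895 and 0.925, and in each of the 4 ratios both YAP5SA points lie to the right of the controls.

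The genes lie in 4 clusters. Hist1 on chromosome 13 held 56 genes, of which 46 were tested, 45 had a positive fold change and 17 rose (median 1.27). Of the 11 genes of Hist2 on chromosome 3 only 3 were tested, of the 3 of Hist3 1 was (Hist3h2a, -0.17), and Hist4 has 1, so a difference between clusters was not tested. Within Hist1, gaps of over 100000 bases separate blocks. The first, chr13:21715763-21837530, held 19 genes with a summed level of 61.3 and 69.9 CPM in control and 175 and 188 CPM in YAP5SA, a ratio of 2.77, and 5 of 13 tested genes rose. The block at chr13:22035164-22043676 held 5 genes, 1 of 4 tested rose (Hist1h2bk), and the ratio was 2.38. The largest block, chr13:23531050-23764406, held 29 genes with 503 and 442 CPM in control and 798 and 892 CPM in YAP5SA, a ratio of 1.79, and 11 of 28 rose. In each of these 3 blocks genes rose. The median log2 fold changes were 1.54, 1.31 and 1.12. The last block contains Hist1h1c. A further block at chr13:23933773-23934851 holds Hist1h2aa and Hist1h2ba, testis histone genes, with no count in any library.

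Many H2A and H2B genes are arranged head to head: 14 pairs had starts within 500 bases of each other on opposite strands. In 10 of the 14 the H2B gene had the higher level per kilobase. Some pairs had almost no counts. Hist1h2aa and Hist1h2ba had none, and Hist1h2ao with Hist1h2bq and Hist1h2ap with Hist1h2br had at most 2 in a library. The pair of Hist1h2ap and Hist1h2br is among the 10. In Hist1h2ac and Hist1h2bc, for example, the H2A gene had a mean of 1.49 CPM (0.599 per kilobase) and the H2B gene 31.0 CPM (26.8 per kilobase). In 7 of the 8 pairs with both genes tested both fold changes were positive, and the larger one belonged to the H2B gene in 3. Most tested cluster genes were positive (48 of 51), so the 7 do not set the pairs apart. Hist1h2ah and Hist1h2bk had 0.85 and 2.00, and Hist1h2ac and Hist1h2bc had 1.08 and 0.54. The pair Hist2h2ac and Hist2h2be, 239 bases apart, was the exception, with 0.50 and -1.49. The difference within a pair was not tested.

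Annotated 3′ ends differ among the cluster genes. In 37 of the 60 genes with a stem-loop the GENCODE model ends within 100 bases of it, and in 23 it runs further. As background, some cluster genes also give mRNAs that end at a poly(A) site downstream. Which gene models the counting used was not given in the sources used here. The genes with the short models summed to 150 and 184 CPM in control and to 413 and 456 CPM in YAP5SA, a ratio of 2.60. The 26 of them tested had positive fold changes (median 1.33) and 11 rose. The genes with longer models summed to 450 and 370 CPM in control and to 618 and 683 CPM in YAP5SA, a ratio of 1.59. Of the 19 tested, 17 were positive (median 0.95) and 5 rose. Hist1h1c and Hist3h2a were the others. The fold changes ran from 0.50 to 2.00 with the short models and from -0.17 to 1.88 with the longer ones. Over the 45 tested genes with a stem-loop, Spearman's rho between the fold change and the bases past the stem-loop was -0.395. For the log2 ratio of control replicate 1 to replicate 2 it was -0.434 (50 tested cluster genes). For exonic length, shared 75-base words and mean CPM it was -0.367, 0.282 and -0.003 (51 genes). The median of that control ratio was -0.232 with the short models and 0.165 with the longer ones. These features were not tested apart. The genes share the libraries, and the coefficients are descriptions.

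**Figure D5:**
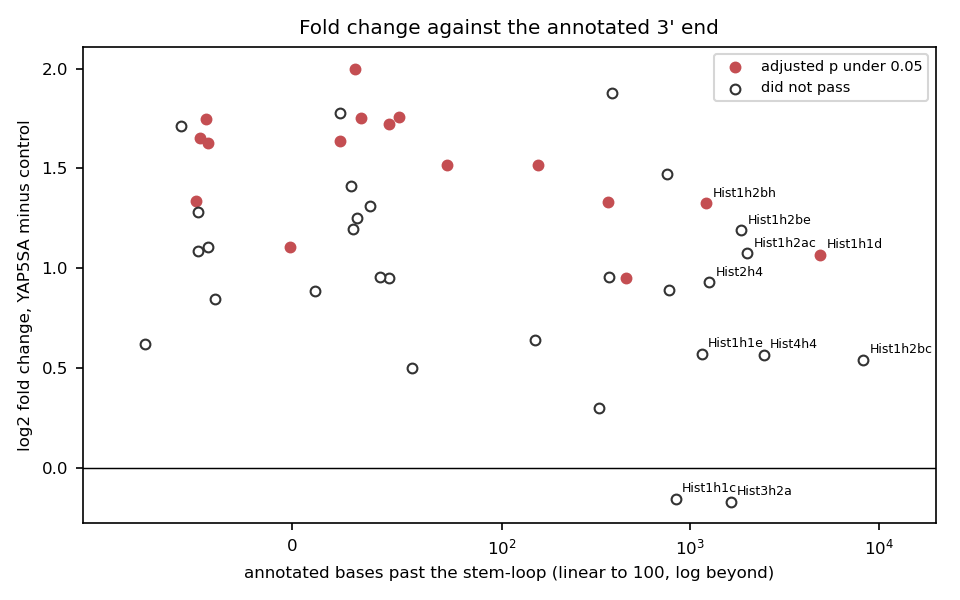
Log2 fold change of each tested cluster gene with a stem-loop (YAP5SA minus control) against the number of annotated bases past the stem-loop (linear to 100, log beyond). The genes whose model ends within 100 bases all lie above 0, and the 2 genes below 0 have longer models.

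Near-identical copies and overlapping genes limit some of these values. Sharing was counted in words of 75 bases, the length of a read. A word counted as shared if it occurred, on either strand, in an annotated transcript of another gene. This includes genes that overlap at the same place, such as those on the other strand of the H2A genes. Copies and overlaps were not separated. For 5 cluster genes every 75-base word of the annotated exons also occurs in an annotated transcript of another gene. They are Hist2h2aa1, Hist2h2aa2, Hist2h3c1, Hist2h3b and Hist2h2bb, and the first 4 had no count in any library, as did Hist1h2ap, Hist1h2aa, Hist1h2ba and a second row for Hist2h2bb. A count of 0 allows up to 3 counts, or 0.272 and 0.397 CPM in control and 0.202 and 0.228 CPM in YAP5SA. A further 12 genes had 0 to 12 counts in a library and were not tested. Genes with at most 25% of their words shared summed to 375 and 321 CPM in control and to 552 and 601 CPM in YAP5SA, a ratio of 1.66. Of 17 tested, 15 were positive (median 1.08) and 7 rose. Genes with more sharing had a ratio of 2.18 and a median of 1.27, so the ratio was above 1 in both. How reads that fit several copies were counted was not given in the sources used here.

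Levels were compared between genes only per kilobase of exon. Hist1h1c was the highest in both control libraries (99.2 and 62.8 CPM per kilobase, against 67.5 and 78.3 in YAP5SA). Hist1h4f was the highest in YAP5SA replicate 1, with 95.1, after 24.6 and 31.1 in control and beside 91.9 in YAP5SA replicate 2. Hist1h4h was the highest in YAP5SA replicate 2, with 96.3, after 39.1 and 54.3 in control and beside 84.0 in the other. By the mean of the control libraries, Hist1h1c (81.0) was followed by H3f3b (62.6), Hist1h4h (46.7), H1f0 (40.7) and Hist1h4d (37.5). By the mean of the YAP5SA libraries, Hist1h4f (93.5) was followed by Hist1h4h (90.2), Hist1h4k (84.5), Hist1h1c (72.9) and Hist1h4d (69.7). In both orders the values of neighbours overlapped. Among the 10 highest genes H4 held 5 places in control and 4 in YAP5SA, and H2A held none in either group.

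Of 61 tested genes of 3′ end processing, transcription, chaperoning and deposition of histones edgeR called none, near the background of 3.12% higher and 0.999% lower, 41 were positive and the median log2 fold change was 0.24. At an unadjusted p below 0.05, 9 were higher and 2 lower. DESeq2 called 2 higher, beside 3.47% of all genes it fitted, and limma-voom none, beside 3.12%. Without control replicate 1 or 2 the median log2 fold change of these genes in edgeR was 0.29 and 0.24. Slbp, which binds the stem-loop, had 42.4 and 33.3 CPM in control and 26.5 and 32.4 CPM in YAP5SA (-0.37, SE 0.21, adjusted p = 0.347). Npat, the transcriptional co-activator of the clusters, had 34.8 and 33.3 CPM in control and 40.5 and 42.9 CPM in YAP5SA (0.29, adjusted p = 0.328), and its partner in histone locus bodies Casp8ap2 had -0.05 (adjusted p = 0.915). For Slbp both YAP5SA libraries lay below both controls, for Npat above. Eri1, a nuclease that degrades histone mRNA from its stem-loop, had 21.3 and 20.5 CPM in control and 35.8 and 42.0 CPM in YAP5SA (0.90, SE 0.18, adjusted p = 0.0576). The chaperones Nasp, Chaf1a, Chaf1b and Hira had 0.27, 0.72, 0.51 and 0.15, with adjusted p from 0.242 to 0.783.

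Genes of S phase and DNA replication were mostly higher, like the cluster histones. Of 59 tested, 55 were positive (median 0.69) and 11 rose, against 3.12% of all tested genes, and Slbp and Nasp stand in this list too. Their summed level was 849 and 774 CPM in control and 1219 and 1452 CPM in YAP5SA. Mcm2, of the replicative helicase, had 13.1 and 14.0 CPM in control and 38.9 and 49.1 CPM in YAP5SA (log2 fold change 1.70, SE 0.20, edgeR adjusted p = 0.0284). Mcm5, of the same helicase, had 14.7 CPM in each control library and 38.7 and 48.7 CPM in YAP5SA (1.57, adjusted p = 0.0301). Rrm2, of the enzyme that makes deoxynucleotides, had 17.8 and 11.8 CPM in control and 51.8 and 62.3 CPM in YAP5SA (1.94, adjusted p = 0.0316). These fold changes lie within the range of the 17 histone genes that rose, 0.95 to 2.09. Dbf4, the activator of a replication kinase, rose too (1.25, adjusted p = 0.0359), as did Mcm3, Mcm6, Ccna2, Rrm1, Lig1, Uhrf1 and E2f2. Pcna, the sliding clamp, had 0.85 (adjusted p = 0.0639), and Mki67, a marker of cycling cells, 1.27 (adjusted p = 0.0521). As with the histone genes, none of the 59 was called without either YAP5SA library.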

How the data were processed

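The authors deposited 1 table of raw, unscaled counts, with a row per gene symbol and a column per nuclear RNA library (4). STAR mapped the paired reads to mm10, per the labels' protocols. DESeq2 is named in the submitters' processing notes. Tool versions, counting program, strand setting, gene annotation and the treatment of reads with several matches were not given in the sources used here. The ATAC-seq and 4C-seq samples were not analysed here.

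The test was edgeR 4.0.16 (R 4.3.3) with TMM scaling, filterByExpr at a minimum count of 10, the quasi-likelihood F test and Benjamini-Hochberg adjustment over 17715 genes. SE is |log2 fold change| over the root of F. CPM uses TMM-scaled totals. Floors cover counting error only. Whether replicates are separate animals is not stated, so p-values reflect the spread among these 4 libraries alone, and that spread may be technical. Both replicate pairs differed by more than sampling noise (chi-square per gene of 54.6 in control and 13.7 in YAP5SA). The edgeR fit was also run on simulated counts with the same dispersion in every library. That setting does not cover the unequal spread of the real pairs.

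GENCODE M21 (GRCm38) matched 80 of 81 genes, and stem-loops were read from the GRCm38 genome. Named genes are the called members, the 10 variants, the 3 highest of each core class by mean CPM, set regulators, and up to 4 list genes each way by adjusted p. Others were named after their values were seen. The members and lists were chosen with earlier results of these data known. Alternatives were other scalings, filters, DESeq2 1.42.0, limma 3.58.1 (voom), a replicate block and leaving out each library.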

Additional observations from a re-analysis of the deposited data

How the results depend on the processing

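The 17 histone genes higher and 0 lower became 33 and 1 (Hist2h2be) with no filter on low counts and 29 and 0 with DESeq2, and 0 to 44 higher and 0 to 4 lower when 1 library was left out. The 4 lower calls, without control replicate 2, were Hist2h2be, Hist1h1c, H3f3b and H1f0. Of the 17, Hist1h4c was lost with library totals in place of TMM, Hist1h1d and Hist1h3b with a minimum count of 30, and Hist1h3h, Hist1h4c and Hist1h1a with limma-voom. Genes of processing, chaperoning and regulation went from 0 to 4 higher with no filter and 2 with DESeq2, and to 0 to 18 higher and 0 to 6 lower when 1 library was left out. S phase genes went from 11 higher to 24 with no filter and 17 with DESeq2, and to 0 to 35 higher and 0 to 1 lower when 1 library was left out. With no filter on low counts, edgeR called 5.65% of all 30546 genes higher and 5.53% lower. With the filter these shares were 3.12% and 0.999% of 17715 genes. The 4 of 61 processing genes higher with no filter are near the share over all genes in that setting. A fit with 1 library in a group assumes that it varies like the other group, and the control pair varied more. Without a control library, calls in both directions also became far more common over all tested genes. With the replicate block, 7 histone genes, 0 processing genes and 4 S phase genes were higher, and Hist1h3b, Hist1h3f, Hist1h3g, Hist1h3h, Hist1h3i, Hist1h2bh, Hist1h2bm, Hist1h1a, Hist1h1d and Hist1h4c were not called. The replicate numbers are shared by number only: deviations of same-numbered libraries correlated at -0.0917 across genes, so the block is not a pairing of animals. Summed over the cluster genes with at most 25% of 75-base words shared, an alternative chosen after seeing the data, the means were 348 CPM in control and 576 CPM in YAP5SA, against 603 and 1131 for all. Leaving Gm26917 (7.91% to 12.96% of the counts) out of the totals, also chosen after seeing the data, gave 17 and 0. No named gene changed direction with a call. With 2 libraries per group, the spread between libraries limits what could be called.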

Other observations

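Histone genes outside the symbols described above were few in the table. Cenpa, for the H3 variant of centromeres, had 174 and 232 counts in control and 335 and 385 in YAP5SA (log2 fold change 0.17, SE 0.35, edgeR adjusted p = 0.813). H2afy3, listed as a further histone gene, had 2 and 5 counts in control and 38 and 21 in YAP5SA (2.39, SE 0.68, adjusted p = 0.117). The groups of H2afy3 did not overlap, and its counts are low. H1foo, the linker histone of the oocyte, had 14 counts in control replicate 1 and 0 in the other 3 libraries.

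Of 8 other short or non-polyadenylated RNAs tested, edgeR called none, with 1 higher and 1 lower at an unadjusted p below 0.05. DESeq2 called Terc higher and limma-voom called none. The median log2 fold change was -0.27. Rn7sk had 18905 and 20291 CPM in control and 12913 and 11960 CPM in YAP5SA (-0.66, edgeR adjusted p = 0.496). Rmrp had 78.5 and 76.0 CPM in control and 91.0 and 62.7 CPM in YAP5SA (adjusted p = 0.989). Terc had 1.54 and 3.17 CPM in control and 8.22 and 8.20 CPM in YAP5SA (1.83, adjusted p = 0.0742).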
